A study of Mus musculus with 16 samples.

Results

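The 10 genes described here form the switch that sets whether liver mitochondria turn pyruvate into acetyl-CoA. They are the 4 pyruvate dehydrogenase kinases (Pdk1, Pdk2, Pdk3 and Pdk4), the 2 phosphatase catalytic subunits (Pdp1 and Pdp2), the alpha and beta subunits of the E1 enzyme (Pdha1 and Pdhb) and the 2 subunits of the mitochondrial pyruvate carrier (Mpc1 and Mpc2). Each was picked by its exact gene symbol, without a filter on its measured values, and all 10 were found among the 25803 genes of the deposited tables. The 10 genes and the gene lists used below were chosen with earlier results of these data known. Bulk RNA sequencing of liver was carried out on 16 libraries, 4 in each of 4 groups. All groups were male mice given a high-fat diet for 12 weeks. The fasted control group and the fasted group with ablation of hepatic Cpt1a (labelled LKO) were necropsied after 16 h without food. The refed control and refed LKO groups had the same fast and then 6 h of food. The controls are labelled control and are called wild type in the series' design text. Strain, age, the alleles and the driver of the liver deletion are not given in the sources used here. The sources also do not say whether each library is 1 animal, so p-values measure the spread between these libraries.

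Pyruvate dehydrogenase is a mitochondrial complex that commits carbon from glucose and lactate to acetyl-CoA, for oxidation or for fat synthesis. Its kinases phosphorylate the E1 alpha subunit and shut the complex off, and its phosphatases remove those phosphates and switch it back on. In fasting liver the complex is held back so that pyruvate can go to glucose, and Pdk4 in particular is known as a gene that PPARA, FOXO1 and glucocorticoids induce when fatty acids are the main fuel. Cpt1a encodes the carnitine palmitoyltransferase that lets long-chain fatty acids into mitochondria. The comparisons ask how its loss in liver, after a fast and after food, is met in the transcripts of the switch.

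Library totals ran from 14721601 to 24618230 counts. The library names S40 to S55 are those of the count columns. Levels are given in CPM, counts scaled to a common library total. Cpt1a held 377.5 to 555.7 CPM in fasted control and 86.1 to 125.6 in fasted LKO libraries, and 319.4 to 619.7 in refed control and 39.9 to 75.2 in refed LKO libraries, so the ranges follow the genotype labels. The 7 measured hepatocyte markers, Alb the most abundant, summed to 58016 to 89348 CPM in every library, and the 5 measured muscle markers to at most 0.680 CPM. In the fasted state the summed hepatocyte markers were lower in LKO libraries (58016 to 66680 CPM) than in controls (70231 to 77354 CPM), without overlap. The 6 adipocyte markers summed to 153 to 355 CPM in fasted LKO against 46.6 to 132 CPM in fasted control. Nearly all of the LKO sum was Cidec, a lipid droplet gene that fatty hepatocytes also express, at 151 to 354 CPM, while the defining adipocyte genes Adipoq, Plin1, Retn and Lep stayed at or below 0.497 CPM in all fasted libraries, Lep at 0 in all 4 of fasted LKO. Cfd, the sixth of them, was lower in fasted LKO (0.336 to 9.51 CPM) than in fasted control (9.75 to 58.1 CPM). The summed macrophage, endothelial, lymphocyte, stellate cell or fibroblast, cholangiocyte and red blood cell markers overlapped between the fasted genotypes. Of their single markers, 1 of 6 stellate cell or fibroblast markers was higher in fasted LKO at an adjusted edgeR p below 0.05. At that threshold 1 of 5 red blood cell markers was lower. Over all tested genes 5.75% were higher and 6.48% lower in fasted LKO at that threshold. All 5 red blood cell markers had a negative log2 change (median -0.76), and 4 of 5 cholangiocyte markers a positive one (median 0.75). After food the lymphocyte sum was 2.72 to 3.64 CPM in control and 4.20 to 7.11 CPM in LKO, without overlap. Between the refed genotypes all 6 macrophage markers had a negative log2 change (median -0.59), 0 of them at an adjusted edgeR p below 0.05. The refed macrophage sums overlapped. Of 6 endothelial markers 1 was higher in refed LKO at that threshold, as were 2.28% of all genes. Within fasted LKO, S44 and S47 held the highest cholangiocyte sums (80.8 and 65.5 CPM, against 37.3 and 33.5 in S45 and S46) and stellate cell or fibroblast sums (234.9 and 261.3 CPM, against 173.5 and 188.5). In bulk tissue, fewer cells of a type and less RNA per cell cannot be told apart, and the part of these marker differences in the results below was not tested.

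After a fast, loss of Cpt1a went with more Pdk4 and less Pdk2 transcript, and with no call for the other 8 genes. A gene is called here when its p in the quasi-likelihood test of edgeR, adjusted by Benjamini-Hochberg over all 14488 genes tested, is below 0.05, and all 10 genes of the switch were tested. Thus 2 of the 10 were called between fasted genotypes, 1 in each direction, where the call rate over all tested genes was 12.2% (5.75% higher and 6.48% lower in LKO). After refeeding edgeR called 0 of the 10 by genotype, against 3.63% of all genes, 2.28% higher and 1.35% lower. DESeq2 and limma-voom also called 0 of the 10, while 5 of them had an unadjusted edgeR p below 0.05, as did 2672 of the 14488 genes tested. Food changed 2 of the 10 in control liver, Pdk2 downward and Pdhb upward, where the rate over all genes was 15.4% (7.79% higher and 7.65% lower). In LKO liver it changed 3 of the 10, Pdk4 and Pdp2 downward and Pdhb upward, where that rate was 18.1% (9.28% higher and 8.78% lower). Counts of 2 or 3 of 10 called are close to these shares, so they do not set the switch apart from other genes. The 5 of 10 with an unadjusted edgeR p below 0.05 between refed genotypes are a larger share than over all genes. That difference in share was not tested.

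The difference between the genotype effects after food and after a fast (the interaction) was tested in the same fit. It was called for 0 of the 10 genes in edgeR and limma-voom and for 1, Pdk4, in DESeq2. An unadjusted edgeR p below 0.05 was found for 3 of the 10 and for 2397 of the 14488 genes tested. Over all genes edgeR called 0.538%, with 0.311% higher and 0.228% lower. The 4 pairwise comparisons share groups, for instance fasted LKO stands in both the fasted genotype comparison and the LKO feeding comparison, so their values are given side by side and are not independent.

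**Figure D1:**
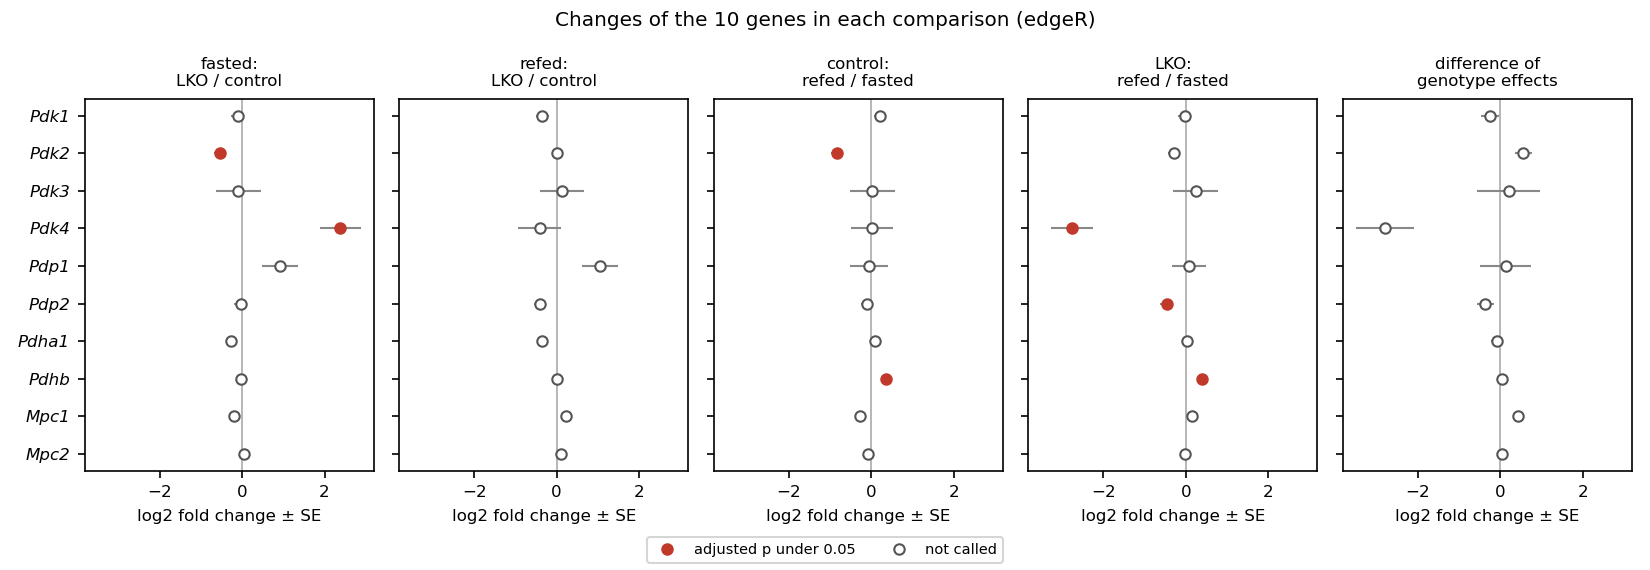
Log2 fold change with its standard error (horizontal bar) of each of the 10 genes in the 5 comparisons from the edgeR fit, with filled points for an adjusted p below 0.05 and open points for genes not called. Pdk4 stands at 2.38 in fasted LKO against control and at -2.76 with food in LKO, Pdk2 at -0.53 and -0.84 in the fasted genotype and control feeding comparisons, and Pdhb at 0.35 and 0.39 with food in control and LKO.

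The largest called changes were in the kinases. Pdk4 encodes the kinase whose transcript responds most to fasting in many tissues. It lies at chr6:5483351-5496309 on the minus strand (ENSMUSG00000019577; gene positions come from the deposited tables, in mm39 per the submitters' processing notes). Pdk4 stood at 3.8, 5.0, 3.0 and 8.2 CPM in fasted control libraries S40 to S43. In fasted LKO libraries S44 to S47 it stood at 34.1, 6.3, 13.5 and 49.97 CPM. The fasted LKO group was uneven, with high values in S44 and S47, a middle one in S46, and S45 below the highest control, so the groups overlapped. S44 and S47 were also the fasted LKO libraries with the highest cholangiocyte and stellate cell or fibroblast marker sums, whose part in the Pdk4 values was not tested. The rise was 2.38 ± 0.49 on the log2 scale (SE), a 5.22-fold difference, with an edgeR adjusted p of 0.0052. Leaving out any 1 of the 16 libraries kept the call, with log2 changes of 1.86 to 2.73 and a highest edgeR adjusted p of 0.0217.

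After food no genotype difference in Pdk4 was called. Pdk4 read 3.4, 5.5, 3.6 and 7.9 CPM in the refed controls (S48 to S51) and 4.2, 3.5, 4.4 and 3.2 CPM in the refed LKO group (S52 to S55). The 2 refed groups overlapped, with a log2 difference of -0.41 and a 95% interval of -1.42 to 0.61. Within LKO liver Pdk4 fell by 2.76 on the log2 scale with food (SE 0.50, edgeR adjusted p 0.0013), and every fasted LKO library lay above every refed one. In the same comparison all 5 cholangiocyte markers had a negative log2 change (median -0.96). Of them 1 was called, Krt19, named after its values were seen, where 8.78% of all genes were called lower. The cholangiocyte sum was 33.5 to 80.8 CPM in fasted and 34.5 to 38.5 CPM in refed LKO. All 6 macrophage markers also had a negative log2 change with food in LKO (median -0.41), with 0 called. The adipocyte marker sum was 153 to 355 CPM in fasted and 66.4 to 109.8 CPM in refed LKO, without overlap, and Cidec fell by 1.68. The part of these markers in the fall of Pdk4 was not tested. Within control liver its change was 0.03, with a 95% interval of -0.97 to 1.03, which leaves room for a change of either sign. The interaction for Pdk4 was -2.79 ± 0.71 (SE) with an edgeR adjusted p of 0.0707, which did not pass. It passed in DESeq2 and without library S45 (edgeR adjusted p 0.0181), and its highest edgeR adjusted p with 1 library left out was 0.154, without S40.

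Pdk2 encodes the kinase that is most widely expressed and is abundant in liver, and its gene lies at chr11:94917084-94932180 on the minus strand (ENSMUSG00000038967). Pdk2 stood at 237.0, 184.8, 194.1 and 218.9 CPM in fasted control libraries. Fasted LKO libraries held 118.2, 144.4, 173.1 and 140.5 CPM, all below every fasted control. The fall was 0.53 on the log2 scale (SE 0.14), and Pdk2 passed with an edgeR adjusted p of 0.0219. That call was lost when S40, S43 or S44 was left out, the highest edgeR adjusted p being 0.076 without S44.

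Food lowered Pdk2 in control liver to 101.8, 113.9, 104.5 and 146.3 CPM. No refed control library reached the lowest fasted control, and the fall of 0.84 on the log2 scale (SE 0.14) had an edgeR adjusted p of 0.0016. It was called in each of the 16 fits with 1 library left out. In LKO liver, where the fasted level was already lower, Pdk2 went to 96.1, 139.6, 125.1 and 112.6 CPM with food, overlapping the fasted libraries. That change was -0.28 with a 95% interval of -0.56 to -0.0043 (edgeR adjusted p 0.189), and the interaction of 0.56 ± 0.20 (SE) had an edgeR adjusted p of 0.177. The fall of Pdk2 with food in control is therefore not shown to differ from that in LKO.

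**Figure D2:**
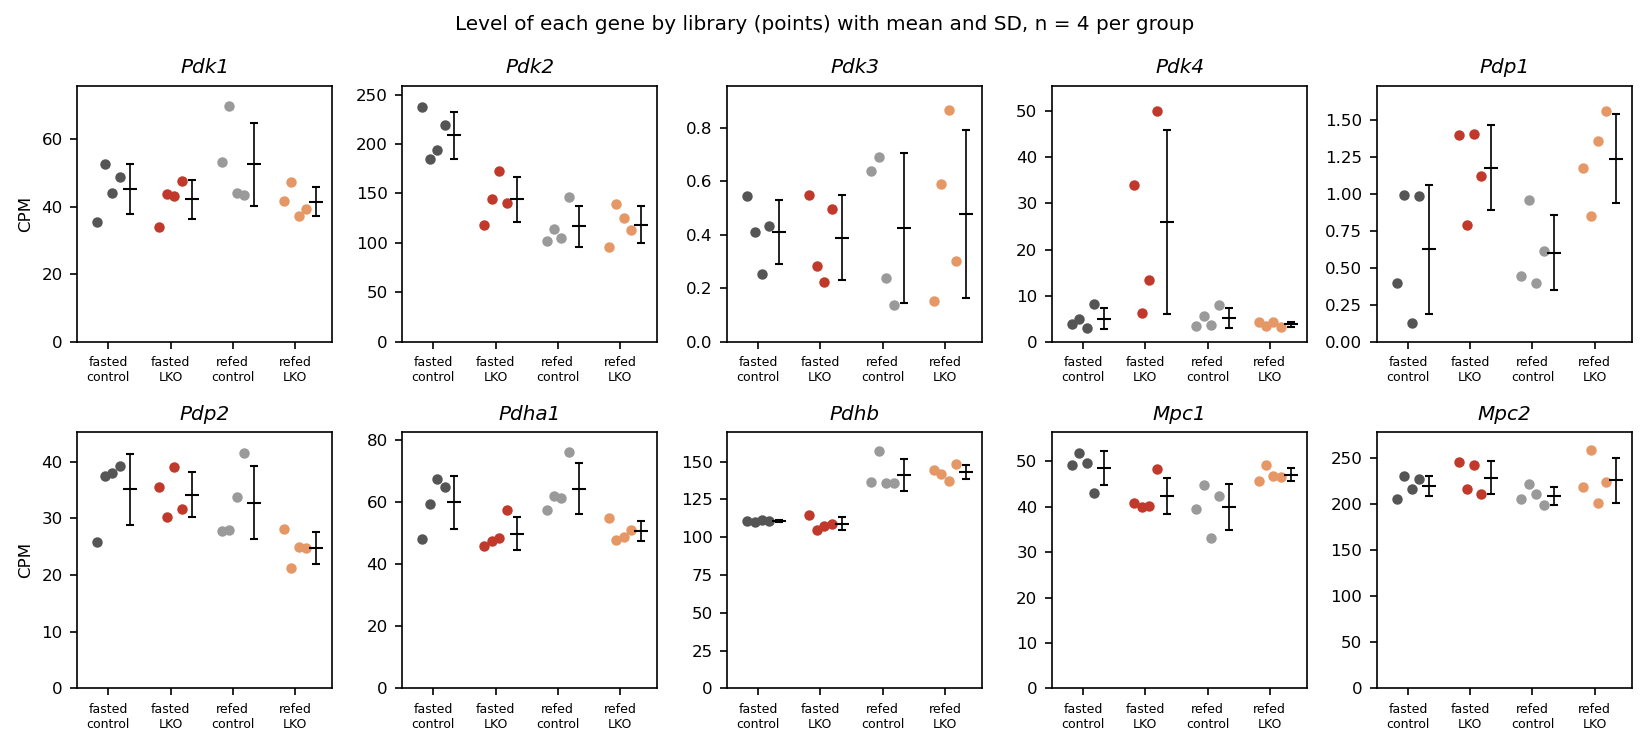
CPM of each of the 10 genes in every library (points, grouped by genotype and feeding state) with the group mean and SD (n = 4) beside the points; each panel has its own vertical axis from 0. Pdk4 is spread from 6.3 to 49.97 CPM in fasted LKO and stays at or below 8.2 CPM in the 12 other libraries, Pdk2 is highest in fasted control, and all refed Pdhb values lie above all fasted ones.

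Because Pdk4, Pdk2 and Pdhb hold most of the calls among the 10 genes, the 250 bases before their RefSeq start sites are shown, read 5′ to 3′ on the gene's strand in GRCm38.p6, a build other than that of the tables. Capitals mark the CCAAT box (CCAAT, or ATTGG on the other strand), the GC box (GGGCGG, or CCGCCC) and the E-box (CACGTG), where present. For Pdk2, which has 2 start sites in the RefSeq table, the upstream one is shown.
Pdk4, chr6:5496279-5496528, minus strand: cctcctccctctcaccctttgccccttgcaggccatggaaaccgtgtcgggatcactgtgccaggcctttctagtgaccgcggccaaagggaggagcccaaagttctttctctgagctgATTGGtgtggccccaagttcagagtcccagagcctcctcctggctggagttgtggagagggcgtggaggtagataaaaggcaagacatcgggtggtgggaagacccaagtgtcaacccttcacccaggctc
Pdk2, chr11:95041372-95041621, minus strand: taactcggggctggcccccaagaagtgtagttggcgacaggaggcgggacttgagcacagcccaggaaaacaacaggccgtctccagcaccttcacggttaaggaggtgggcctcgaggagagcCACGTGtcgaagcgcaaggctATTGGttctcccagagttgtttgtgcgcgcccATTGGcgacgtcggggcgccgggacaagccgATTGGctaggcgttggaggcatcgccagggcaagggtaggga
Pdhb, chr14:8172993-8173242, minus strand: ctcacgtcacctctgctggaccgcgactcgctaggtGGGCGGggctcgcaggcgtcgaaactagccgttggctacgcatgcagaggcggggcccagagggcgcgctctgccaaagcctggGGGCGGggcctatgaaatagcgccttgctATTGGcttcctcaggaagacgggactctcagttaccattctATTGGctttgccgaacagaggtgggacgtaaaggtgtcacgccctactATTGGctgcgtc

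All motifs were searched on both strands, and none of the capitals shown overlap. The Pdk4 window holds 1 CCAAT box, at -131 to -127 from the start, while the Pdk2 and Pdhb windows hold 3 each. Of all 32851 RefSeq windows of this length, 33.8% hold a CCAAT box. The E-box at -126 to -121 of Pdk2 is a motif of 6.02% of windows, and the GC box, found at -214 to -209 and -130 to -125 of Pdhb, of 32.7%. A search for the nuclear receptor half-site AGGTCA (14.0% of windows), a direct repeat of it with a spacer of 1 base (0.0335%) and the FOXO site GTAAACA (3.17%) found none of these letters in the 3 windows. A match in such a window is a description of its letters only.

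Pdk1 and Pdk3 showed no call in any comparison. Pdk1, the kinase known as a target of hypoxia signalling (chr2:71703568-71734202, plus strand), averaged 45.3 ± 7.40 CPM in controls and 42.2 ± 5.77 in LKO after a fast, and 52.6 ± 12.2 in controls and 41.5 ± 4.30 in LKO after food (SD, n = 4). Its largest difference was between refed genotypes, -0.34 ± 0.15 (SE) with an edgeR adjusted p of 0.241, and S49 held the highest refed control value, 69.7 CPM. Pdk3 (chrX:92808213-92875807, minus strand), a kinase better known from testis, was close to the limit of counting, with 2 to 14 counts and 0.136 to 0.865 CPM per library. At that depth only large changes of Pdk3 could be seen, since the SE of its log2 changes was at least 0.53.

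Read per kilobase of deposited gene length, so that genes can be compared, Pdk2 made up most of the kinase transcript in each library. Its share of the summed level of the 4 kinases ran from 68.4% to 92.8%. The Pdk4 share was 1.92% ± 0.818 in fasted control and 12.5% ± 9.20 in fasted LKO (SD, n = 4). In the 4 fasted LKO libraries it was 18.8%, 3.36%, 5.99% and 21.9%, each above the highest fasted control share of 2.9999%. After food it was 3.13% ± 0.812 in control and 2.52% ± 0.569 in LKO (SD, n = 4), with overlapping ranges. These shares depend on the gene lengths used, and no test was made on them.

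The summed kinase level was lower, not higher, in fasted LKO: mean Pdk2 went from 66.0 to 45.5 CPM per kb and mean Pdk4 from 1.42 to 7.40 CPM per kb between the fasted genotypes. The sum was 66.8 to 80.8 CPM per kb in fasted control and 51.7 to 65.0 CPM per kb in fasted LKO, without overlap. After food it was 45.2 ± 6.75 CPM per kb in control and 44.03 ± 6.16 in LKO (SD, n = 4). The ratio of summed kinase to summed phosphatase level averaged 12.1 ± 3.62 in controls and 9.40 ± 1.38 in LKO after a fast, and 7.77 ± 1.08 in controls and 9.72 ± 2.53 in LKO after food (SD, n = 4). The fasted control ratio rests partly on S40, at 17.5, with the other 3 libraries at 9.81 to 10.95. Transcript levels say nothing of the phosphorylation of the complex, which was not measured.

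**Figure D3:**
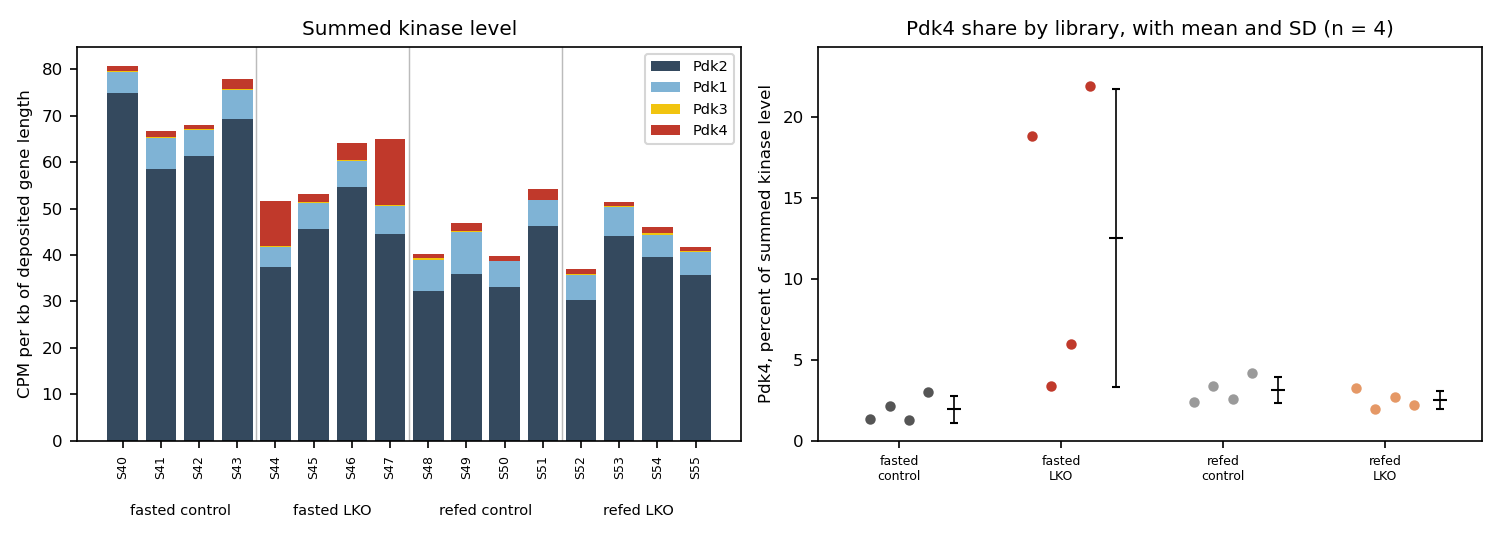
Left, summed level of the 4 kinases in each library in CPM per kilobase of deposited gene length, stacked by gene; right, Pdk4 as a percent of that sum by library with the group mean and SD (n = 4). Fasted control bars reach 66.8 to 80.8 and are nearly all Pdk2, and the Pdk4 share reaches 18.8% and 21.9% in S44 and S47.

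The phosphatases are Pdp2 and Pdp1. Pdp2 (chr8:105318083-105325658, plus strand), the form known from liver and fat and lowered by starvation, supplied 92.7% to 99.6% of the phosphatase transcript per kilobase. Pdp2 stood at 25.8, 37.5, 38.0 and 39.3 CPM in fasted control and at 35.6, 30.3, 39.2 and 31.8 CPM in fasted LKO. Those ranges overlapped, and S40 was the low control. Refed control libraries held 27.7, 28.0, 33.8 and 41.6 CPM, and refed LKO libraries 28.2, 21.3, 24.9 and 24.9 CPM.

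In LKO liver Pdp2 fell with food by 0.46 on the log2 scale (SE 0.15, edgeR adjusted p 0.0391), without overlap between the fasted and refed libraries. That call was lost without S44, S46, S53, S54 or S55, with a highest edgeR adjusted p of 0.11, and with no filter on low counts. The change of Pdp2 in control liver was -0.10 ± 0.15 (SE), and the interaction of -0.36 had an edgeR adjusted p of 0.405. Pdp1 (chr4:11958184-11966452, minus strand), the calcium-sensitive form best known from muscle, held 2 to 36 counts per library. Its level was 0.626 ± 0.435 CPM for controls and 1.18 ± 0.289 CPM for LKO when fasted, and 0.603 ± 0.252 CPM for controls and 1.24 ± 0.301 CPM for LKO when refed (SD, n = 4). The Pdp1 differences between genotypes, 0.91 and 1.05 on the log2 scale, had edgeR adjusted p of 0.193 and 0.1999. The 95% interval of the fasted difference was 0.06 to 1.77, at these low counts.

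The E1 subunits, which form 1 enzyme, did not move alike. Pdhb, the beta subunit (chr14:14296748-14303777, plus strand in mm39), stood at 110.4, 110.3, 111.4 and 111.0 CPM in fasted control and at 114.7, 105.0, 107.2 and 108.8 CPM in fasted LKO. Refed control libraries held 136.5, 157.1, 135.5 and 135.6 CPM, and refed LKO libraries 144.2, 141.9, 137.3 and 148.6 CPM. Each of the 8 refed libraries lay above each of the 8 fasted ones. With food Pdhb rose by 0.35 ± 0.07 on the log2 scale in control (SE, edgeR adjusted p 0.0032) and by 0.39 ± 0.07 in LKO (edgeR adjusted p 8e-04). Both calls held with any 1 library left out. The interaction was 0.04, with a 95% interval of -0.14 to 0.23.

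Pdha1, the alpha subunit that carries the phosphorylation sites, is X-linked (chrX:158905205-158921409, minus strand). It stood at 48.01, 59.3, 67.2 and 64.6 CPM in fasted control and at 45.8, 47.3, 48.4 and 57.5 CPM in fasted LKO. Refed control libraries held 57.4, 61.9, 61.3 and 76.0 CPM, and refed LKO libraries 54.8, 47.7, 48.5 and 51.1 CPM. The refed LKO values were all below the refed controls, but Pdha1 was not called there, with -0.34 ± 0.11 on the log2 scale (SE, edgeR adjusted p 0.0957). The authors' deposited table gives it an adjusted p of 0.0423 in that comparison. In the fasted comparison it was -0.26 ± 0.11 (SE, edgeR adjusted p 0.135), and it was called only without S40 (edgeR adjusted p 0.044). Food left Pdha1 at a change of 0.10 (95% interval -0.11 to 0.32) in control and 0.02 (-0.19 to 0.24) in LKO. The ratio of Pdha1 to Pdhb per kilobase was 0.558 ± 0.0773 in controls and 0.473 ± 0.0549 in LKO after a fast, and 0.472 ± 0.0755 in controls and 0.365 ± 0.0197 in LKO after food (SD, n = 4). Pdha1 overlaps Map3k15 on the opposite strand over 426 bases of transcript, and Map3k15 held 4 to 26 counts; whether the counting used strand is not given in the sources used here. Pdhb has a processed pseudogene copy, Gm6123, 97.0% identical over 1079 bases, which held 13 to 36 counts.

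The pyruvate carrier, an inner membrane dimer of MPC1 and MPC2 through which pyruvate reaches the complex, had no called change in any of the 5 comparisons. Mpc2 (chr1:165288206-165308783, plus strand) stayed between 198 and 259 CPM in all libraries. Its largest log2 difference was 0.11 ± 0.09 (SE), between refed genotypes. Mpc1 (chr17:8501736-8516493, plus strand) stood at 49.2, 51.9, 49.7 and 43.1 CPM in fasted control and at 40.9, 39.9, 40.2 and 48.4 CPM in fasted LKO. Refed control libraries held 39.5, 44.9, 33.2 and 42.4 CPM, and refed LKO libraries 45.8, 49.2, 46.8 and 46.6 CPM. With genotype the order thus turned, lower in 3 of 4 fasted LKO libraries than in any fasted control and higher in all refed LKO libraries than in any refed control, but no difference was called.

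The Mpc1 differences were -0.19 after a fast (edgeR adjusted p 0.195) and 0.24 after food (edgeR adjusted p 0.178), and the interaction was 0.43 ± 0.13 (SE, edgeR adjusted p 0.126). In control liver food went with -0.28 ± 0.09 for Mpc1 (SE, edgeR adjusted p 0.0543). That value passed in DESeq2, in limma-voom, with genes of at least 5 CPM, and without S43, S47 or S49. Counts of Mpc1 are uncertain, because the processed pseudogene Mpc1-ps (chr12:110824999-110825328, minus strand) is 100% identical to Mpc1 over 261 bases. Mpc1-ps held 1401 to 2431 counts per library, more than Mpc1 itself, at 122 ± 4.50 CPM in controls and 107 ± 20.9 in LKO after a fast, and 97.3 ± 8.49 in controls and 120 ± 11.2 in LKO after food (SD, n = 4). With its counts added, the Mpc1 differences were -0.20 after a fast and 0.28 after food, and no call changed.

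Across the 10 genes the order of levels, as medians over the 16 libraries in CPM per kb of deposited length, was Pdk2 (44.3), Pdhb (32.4), Mpc2 (29.6), Mpc1 (21.8), Pdha1 (15.0), Pdk1 (5.63), Pdp2 (5.45), Pdk4 (1.33), Pdp1 (0.216) and Pdk3 (0.164). Neighbours in this order overlapped over the libraries, except that the lowest Mpc2 (27.0) was above the highest Mpc1 (24.9), the lowest Pdha1 (12.3) above the highest Pdk1 (8.96), and the lowest Pdk4 (0.846) above the highest Pdp1 (0.346). The deposited lengths of Mpc2 (7344 bases) and Pdhb (3861 bases) are far above those of their longest coding transcripts in GENCODE M21 (1025 and 1513 bases). With those transcript lengths Mpc2 (212), Pdhb (82.7) and Pdk2 (62.4) came first, in that order, and the other 7 kept their places. Counts on the pseudogene Mpc1-ps were not added to Mpc1 in either order. Mpc1-ps held 79.3 to 128.9 CPM per library, against 33.2 to 51.9 CPM for Mpc1. The place of Mpc1 and its separation from Mpc2 are therefore uncertain.

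The list for the rest of the complex held 9 tested genes for the E2, E3 and E3-binding components, the phosphatase regulator and the cofactors. Of these, 2 were called with food in control and 1 with food in LKO, where 15.4% and 18.1% of all genes were called. With food in control, Dld (the E3 subunit) rose by 0.23 and Pdhx (the E3-binding protein) by 0.28, with edgeR adjusted p of 0.0334 and 0.0376, and both calls were lost without S40, S41, S43 or S50, that of Dld also without S49 or S51 and that of Pdhx also without S48. In LKO Pdhx rose by 0.32 with food (edgeR adjusted p 0.0146, lost without S52 or S55). The median log2 change of the 9 genes was -0.0021, 0.05, 0.14 and 0.06 in the fasted genotype, refed genotype, control feeding and LKO feeding comparisons, where the medians of all tested genes were 0.02, -0.01, 0.01 and -0.02. Between refed genotypes edgeR, DESeq2 and limma-voom called 0 of the 9, where edgeR called 3.63% of all genes. Of the 9, 0 had an unadjusted edgeR p below 0.05, as did 2672 of the 14488 genes tested.

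Of 13 tested genes that supply pyruvate or carry it elsewhere, 3 rose and 2 fell in fasted LKO against control, where 12.2% of all genes were called. The list median was 0.06 on the log2 scale, against 0.02 over all genes. Slc16a1, the MCT1 carrier of lactate, pyruvate and ketone bodies, stood at 21.8, 27.3, 27.0 and 35.9 CPM in fasted control and at 95.9, 49.4, 73.3 and 95.5 CPM in fasted LKO. All fasted LKO libraries were above all controls, S44 and S47 were again the highest and S45 the lowest, and the rise was 1.49 ± 0.18 (SE, edgeR adjusted p 2.38e-04). Ldha, lactate dehydrogenase A, rose by 0.79, and Gpt2, the mitochondrial alanine transaminase that forms pyruvate from alanine, by 0.62. Pklr, the liver pyruvate kinase that makes pyruvate from glycolysis, went from 154.9, 159.5, 137.0 and 181.5 CPM in fasted control to 47.7, 73.4, 47.5 and 66.9 CPM in fasted LKO, a fall of 1.43 (SE 0.19, edgeR adjusted p 3.44e-04). The other gene that fell, named after its value was seen, was Gpt, the cytosolic transaminase, at -0.67 ± 0.17 (SE, edgeR adjusted p 0.0189), and without S46 only 1 of the 2 was called.

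After food, where 3.63% of all genes were called between genotypes, Ldha alone of these 13 was called higher in LKO, by 0.82 ± 0.10 (SE, edgeR adjusted p 4.97e-04), at 1888.6 to 2436.4 CPM against 1112.6 to 1258.2 CPM in refed control. Pklr was lower in refed LKO by 0.72 on the log2 scale (edgeR adjusted p 0.044), a call lost in 10 of the 16 fits with 1 library left out and in limma-voom. Pklr rose with food by 0.65 in control, a call lost without S40, S41, S42 or S49, and by 1.36 in LKO (edgeR adjusted p 2.09e-04). Pcx, which turns pyruvate into oxaloacetate, and Pck2, the mitochondrial PEP carboxykinase, fell with food in control by 0.41 and 1.18. Slc16a1 fell with food in LKO by 1.44 (SE 0.18) and was the 1 gene of the list with a called interaction, -1.68 ± 0.25 (SE, edgeR adjusted p 0.0168).

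**Figure D4:**
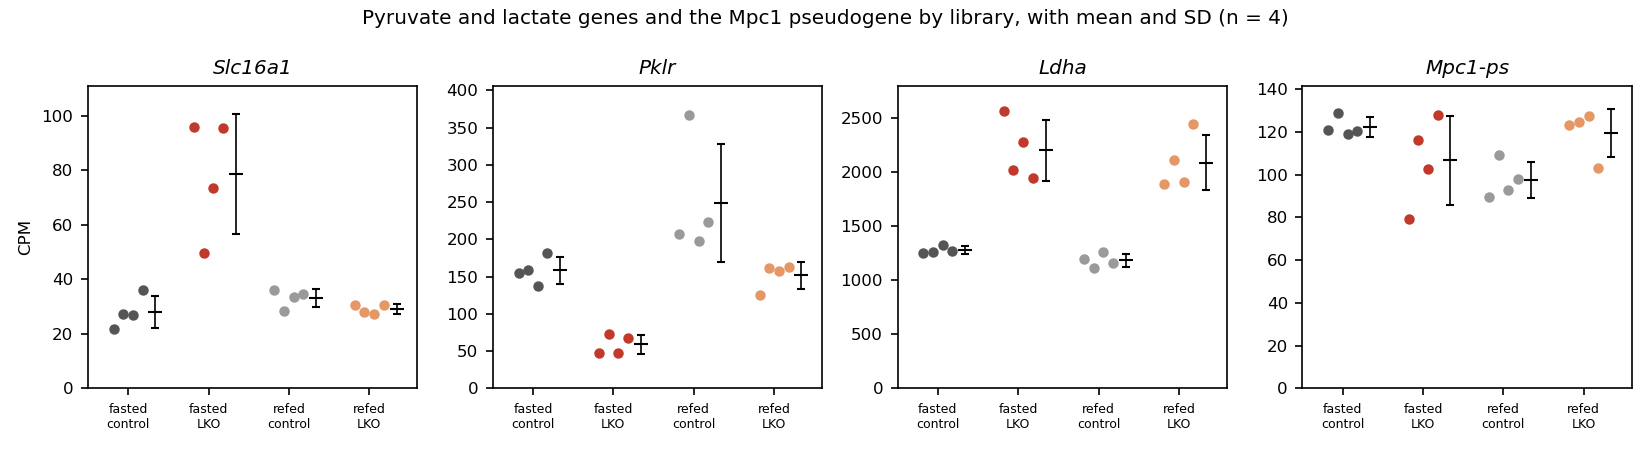
CPM of Slc16a1, Pklr, Ldha and the pseudogene Mpc1-ps in every library (points) with group mean and SD (n = 4), each panel on its own vertical axis from 0. Slc16a1 is raised in the 4 fasted LKO libraries, at 49.4 to 95.9 CPM, Pklr is lowest there, and Ldha is higher in both LKO groups than in both control groups.

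The next list held 7 genes that make, use or carry acetyl-CoA or citrate. Of these, Acly (ATP citrate lyase) and Acaca (acetyl-CoA carboxylase 1) rose with food, by 1.4006 and 0.71 in control. In LKO these 2 rose by 1.70 and 0.77. Of all genes 7.79% were called higher with food in control and 9.28% in LKO, where 8.78% were called lower. In LKO the 7 had 3 called higher, Acss2 (acetyl-CoA synthetase) being the third at 0.67, and 1 called lower, Acacb (acetyl-CoA carboxylase 2, whose product restrains Cpt1a) at -1.49 ± 0.33 (SE, edgeR adjusted p 0.0055). The Acss2 call was lost without S44, S53 or S55. Between genotypes edgeR called 0 of the 7 in either state, against 12.2% of all genes after a fast and 3.63% after food. DESeq2 called 1 higher and 1 lower after a fast and 1 higher after food, and limma-voom 1 lower after a fast; unadjusted edgeR p below 0.05 were 1 higher and 1 lower after a fast and 1 higher after food.

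Of 8 tested factors known to act on Pdk4 transcription, 0 were called higher in fasted LKO against control by edgeR, DESeq2 or limma-voom, with 1 higher at an unadjusted edgeR p below 0.05. That 1 gene, named after its values were seen, was Ppara, the fatty acid-sensing nuclear receptor, at 46.9 ± 11.3 CPM in fasted control and 63.9 ± 16.2 CPM in fasted LKO (SD, n = 4). Its log2 difference was 0.45 ± 0.20 (SE, edgeR adjusted p 0.161), with overlapping groups. In the same comparison 2 were called lower, Esrra (the estrogen-related receptor alpha) at -0.27 and Cebpb (C/EBP beta) at -0.76, with edgeR adjusted p of 0.0377 and 0.0481. There 5.75% of all tested genes were called higher and 6.48% lower. With 1 library left out the Esrra call was lost in 7 of the 16 fits and the Cebpb call in 11, and both were lost with upper quartile scaling. With food in control Nr3c1, the glucocorticoid receptor, rose by 0.32, and Cebpb and Esrra fell by 0.86 and 0.25. In that comparison 7.79% of all genes were called higher and 7.65% lower. The Nr3c1 call was lost without S40 or S50, the Cebpb call without S41, S42, S48 or S50, and the Esrra call in 13 of the 16 fits with 1 library left out. The list median was -0.24 in the fasted genotype comparison.

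Genes known as PPARA targets, other than the switch itself, were called higher in fasted LKO in 10 of 12 cases, with a list median of 1.32. With food in LKO 8 of the 12 were called lower, with a median of -0.64. Over all tested genes 5.75% were called higher in fasted LKO and 8.78% lower with food in LKO. Ehhadh, the peroxisomal bifunctional enzyme, rose by 2.97 ± 0.41 and the thioesterase Acot2 by 2.19 ± 0.32 between the fasted genotypes (SE, edgeR adjusted p 3.93e-04 and 6.39e-04). The Pdk4 log2 change of 2.38 in that comparison lay between these 2, which were named for the smallest adjusted p of the list. It was above the list median of 1.32. With 1 library left out the counts were 8 to 10 of 12 higher after a fast and 4 to 9 of 12 lower with food in LKO, the lowest of these without S52. In control liver food lowered 0 of the 12 in edgeR and limma-voom and 1 in DESeq2, where edgeR called 7.65% of all genes lower. There 5 of the 12 were lower at an unadjusted edgeR p below 0.05, and the list median was -0.33. After food 3 of the 12 were higher in LKO (Ehhadh, Cyp4a10 and Cyp4a14), where 2.28% of all genes were called higher. The list median was 0.54, while Pdk4 stood at -0.41. DESeq2 called 6 of the 12 there and limma-voom 4, and with 1 library left out edgeR called 2 to 4. The interaction was called for 0 of the 12 in edgeR, DESeq2 and limma-voom, where edgeR called 0.538% of all genes. It was negative for all 12 (median -0.42), with 3 lower at an unadjusted edgeR p below 0.05. Over all genes 2397 of 14488 had such a p, in either direction.

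Of 9 tested FOXO1 targets, 4 were higher in fasted LKO, with a list median of 0.37, and 4 fell with food in LKO, with a median of -0.39. The shares over all tested genes were 5.75% higher in fasted LKO and 8.78% lower with food in LKO. Igfbp1, an insulin-repressed secreted protein, and Irs2, an insulin receptor substrate, rose by 1.66 and 1.51 and then fell with food in LKO by 2.53 and 1.98. Igfbp1 stood at 107.1, 20.2, 192.6 and 96.7 CPM in S44 to S47, so S45 was the lowest there too, but S46 and not S47 was the highest. The Igfbp1 rise was not called without S40, S41, S42, S43, S44 or S46. Limma-voom called 2 of the 9 in fasted LKO and the counts with 1 library left out were 2 to 5, the lowest without S40, S41, S43, S44 or S46. With food in control 2 of the 9 rose, G6pc by 1.49 and Mttp by 0.40, where 7.79% of all genes were called higher. Between refed genotypes edgeR called 0 of the 9 and 3.63% of all genes, with a list median of -0.03. The interaction was called for 0 of the 9 in edgeR and limma-voom and 1 in DESeq2, where edgeR called 0.538% of all genes. It was negative for 8 of the 9 (median -0.58), with 6 lower at an unadjusted edgeR p below 0.05, against 2397 of 14488 genes in either direction. Of 8 tested HIF1 targets, a list chosen because Pdk1 is one, Egln3 was lower in fasted LKO by 0.45 on the log2 scale (edgeR adjusted p 0.0489, lost in 11 of the 16 fits with 1 library left out). Vegfa rose by 0.55 with food in control (edgeR adjusted p 0.0013), and Ndrg1 and Bnip3 fell with food in LKO by 1.31 and 0.41, both calls lost without S52 and that of Bnip3 also without S45, S46, S54 or S55. Over all tested genes 6.48% were called lower in fasted LKO, 7.79% higher with food in control and 8.78% lower with food in LKO. Between refed genotypes edgeR, DESeq2 and limma-voom called 0 of the 8 HIF1 targets, where edgeR called 3.63% of all genes. There 6 of the 8 were negative (median -0.23), and 4 were lower at an unadjusted edgeR p below 0.05. Such a p, in either direction, was found for 2672 of the 14488 genes tested.

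**Figure D5:**
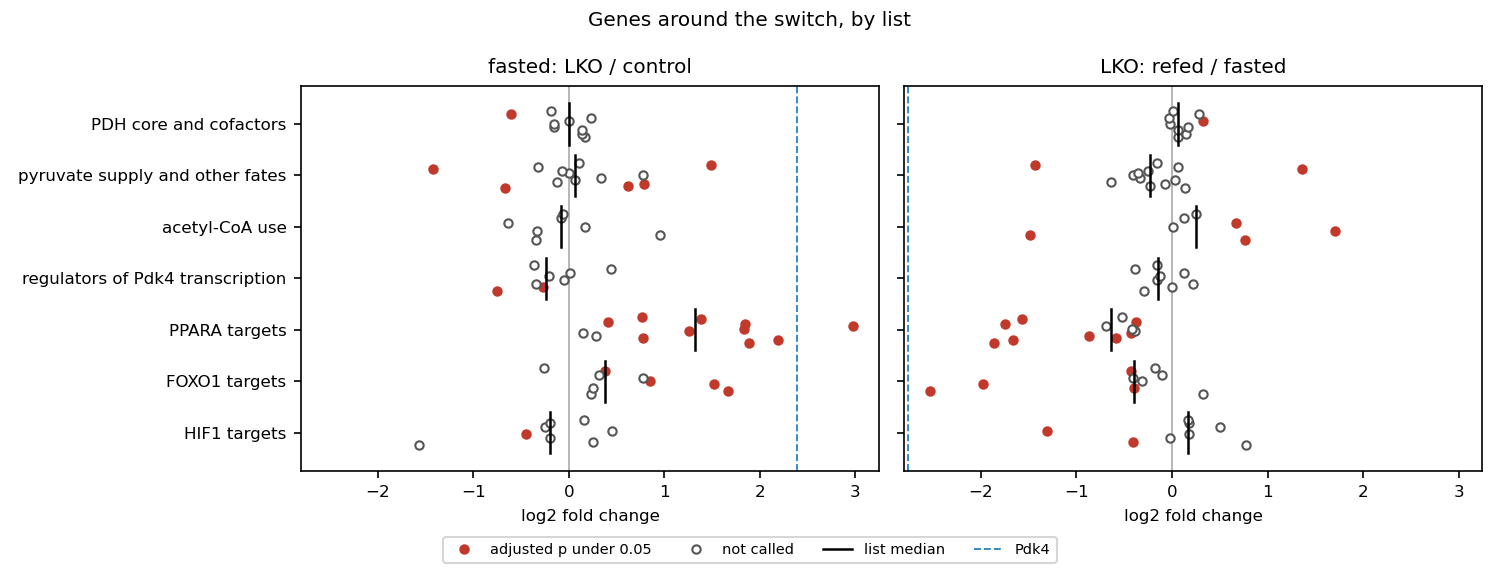
Log2 fold change of every tested gene of 7 lists (points, filled at an adjusted p below 0.05) with the list median (black bar) and the Pdk4 value (dashed line), for fasted LKO against control (left) and food in LKO (right). PPARA targets have medians of 1.32 and -0.64 and FOXO1 targets 0.37 and -0.39, and both panels share the fasted LKO libraries.

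The genes whose library-to-library variation was most like that of Pdk4 were ranked by Pearson's r of log2 CPM over the 16 libraries after removal of the group means, among 9038 genes with a mean of at least 5 CPM. The first 5 were Klf6 (0.86), Car2 (0.85), Fkbp1a (0.83), Denn2b (0.80) and Rhou (0.79). Klf6, a zinc finger transcription factor, stood at 12.2, 7.0, 7.2 and 14.2 CPM in S44 to S47. There S44 and S47 were the high fasted LKO libraries, as for Pdk4. Slc16a1 ranked 9th of these genes, with r = 0.77. Within the switch the same measure was 0.50 for Pdp1, 0.44 for Pdha1 and 0.35 for Mpc1, and -0.01 for Pdk2. These are descriptions over libraries that share their preparation, and the ranking among many genes favours high values.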

How the data were processed

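Poly-A RNA was selected and reverse transcribed from random hexamers in a dUTP protocol, per the labels' protocols. Reads were aligned with HISAT2 2.0.5 and the build is mm39, per the submitters' processing notes; the counting tool, its use of strand and the annotation are not given in the sources used here. The authors deposited 4 tables, each comparing a pair of groups, with raw read counts per gene, gene lengths in bases (used only to compare levels between genes), and their own log2 fold changes and adjusted p-values. The deposited log2 fold changes and p-values were used only where a sentence names the authors' deposited table. Groups of the columns came from the group headings that the tables share. The tables were joined on gene identifier (25803 genes, 0 counts differing between tables), a gene absent from both tables of a library was set to 0 there (3148 genes), and 64 other per-library columns were not used.

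The tools were edgeR 4.0.16, limma 3.58.1 and DESeq2 1.42.0, under R 4.3.3. After filterByExpr (14488 genes kept) and TMM scaling (factors 0.941 to 1.07), glmQLFit was run with the 4 groups as 1 factor over 16 libraries, and glmQLFTest gave 5 contrasts with Benjamini-Hochberg adjustment. The SE is the log2 fold change over the square root of F, and intervals are 1.96 SE either way. Such intervals are narrower than 95% intervals of the test. They can hold values of a single sign where the unadjusted p is above 0.05. CPM are counts scaled by the TMM-adjusted library total. Alternatives were DESeq2, limma-voom, other scalings and filters, only the groups compared, each library left out, and 2 added after seeing the data (Mpc1-ps counts added to Mpc1, and GENCODE M21 transcript lengths). The fit was tested on simulated data.

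The 10 genes and all lists were chosen with earlier results of these data known. Named genes are the 10, at most 4 called genes per list and contrast by smallest adjusted p, and the 5 most like Pdk4. RefSeq promoter windows matched 9 of the 10. A result of the cofactor list is not reported here. Me3 and Car9 were not tested, and G6pc1 was not analysed here.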

Additional observations from a re-analysis of the deposited data

Results flagged for a closer look

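Among 52 groups of 4 libraries examined (each of the 10 genes and 3 sums or ratios, in each group), 4 held a library far from the other 3, where chance alone gives about 1 in 20. A count of 4 of 52 is not far from that share. The 52 are not independent, since the sums and ratios are built from the values of the same genes. Mpc1 was 48.4 CPM in fasted LKO library S47, against 39.9 to 40.9 CPM in the other 3. Pdhb was 157 CPM in refed control library S49, against 135.5 to 136.5 CPM in the others, all of them above every fasted library. Pdp2 was 25.8 CPM in fasted control library S40, against 37.5 to 39.3 CPM. The ratio of summed kinase to summed phosphatase level was 17.5 in the same library, against 9.81 to 10.95, and S40 held both the lowest Pdp2 and the highest Pdk2 of its group.

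The genotype effect on Slc16a1, the lactate and pyruvate carrier, differed between the feeding states, with an interaction of -1.68 on the log2 scale (edgeR adjusted p 0.0168). It was called in each of the 16 fits with 1 library left out. Slc16a1 was higher in 4 of 4 fasted LKO libraries than in any fasted control, and the 2 refed groups overlapped.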

How the results depend on the processing

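Of 2326 values of named genes under the alternatives, 2161 kept their direction and side of the threshold or stayed uncalled, 156 lost a call, 9 gained one and 0 reversed while called; 52 that were uncalled in both changed sign. Other scalings kept the median log2 change of all genes between -0.04 and 0.04. The number of genes called between refed genotypes was 526, and 924 with DESeq2. The interaction had 78 genes, 197 with a mean of at least 5 CPM and 458 with DESeq2, which also called 1 of the 10 switch genes there, Pdk4. With GENCODE M21 transcript lengths the Pdk4 share of kinase transcript was 2.24% in refed control and 1.81% in refed LKO. The cause of these differences was not tested.

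With 1 library left out, genes called ranged from 1048 (without S44) to 1985 between fasted genotypes, 197 (without S48) to 601 between refed genotypes, 1220 (without S40) to 2483 with food in control, 1795 to 2730 with food in LKO, and 8 (without S48) to 282 (without S49) for the interaction. Switch genes called ranged from 1 (without S43 or S44) to 2 between fasted genotypes, from 2 to 3 (without S43, S47 or S49) with food in control, from 2 (without S44, S46, S53, S54 or S55) to 3 with food in LKO, and from 0 to 1 (without S45) for the interaction. The Pdk4 share ranged from 1.56% to 2.15% in fasted control, 9.38% to 15.6% in fasted LKO, 2.78% to 3.38% in refed control and 2.29% to 2.71% in refed LKO.

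No paired analysis was possible because the count columns carry none of the replicate numbers of the labels. Depth limits Pdk3 (2 to 14 counts) and Pdp1 (2 to 36 counts), where counting error alone is wide.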
